A study of Mus musculus with 800 samples.

Results

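Basal vomeronasal sensory neurons of the mouse were compared by the chromosome that carries the V2R pheromone receptor each cell had chosen. Cells were chosen by their counts: at least 30 counts of Gnao1 (the G protein subunit of basal neurons), under 30 of Gnai2 (that of apical neurons), under 10 of Sox2 (a marker of supporting cells), and a top V2R among Vmn2r8 to Vmn2r122 of at least 50 counts. Of 394 single-cell chambers, 66 passed the first 3 limits and 60 also had a top V2R. In 25 of the 60 the top V2R was one of Vmn2r28 to Vmn2r79 on chromosome 7, in 18 one of Vmn2r90 to Vmn2r117 on chromosome 17, and in 17 one of another range. The 25 and 18 are the cells compared, 43 in all. All 60 are counted as the members, a reading taken after the numbers were seen. Gnao1, Gnai2, Sox2 and the V2Rs were selected on and are not findings.

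The cells came from the vomeronasal epithelium of 7 male mice aged 66 days, of the strain B6;129P2-Omptm3Mom/MomJ with the genotype OMP(GFP/wt), in which one allele of the gene for olfactory marker protein carries GFP. All groups share this genotype, and no mouse was treated. Tissue was pooled from 3 and from 4 mice, live nucleated GFP-positive cells were sorted, and each pool was loaded on one side of a microfluidic chip of 800 chambers, where the 3' ends of transcripts were counted with 5-base molecular identifiers. The labels tie no chamber to a mouse or pool, so the chromosome 7 cells and the chromosome 17 cells are each 1 sample. No difference between them was tested. The intervals below are 95% intervals, and spread between mice is unknown. Those of ratios cover counting error only. Those of shares of cells treat the cells of a side as independent draws, although cells are not replicates. The sort on GFP selects neurons that express olfactory marker protein.

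V2Rs are receptors with a large extracellular part that detect peptides and proteins. A basal neuron expresses mainly one V2R of the large families together with a broadly expressed family C V2R, Vmn2r1 to Vmn2r6 here, which acts as a co-receptor. Vmn2r7, also of family C, was not read out. Part of the basal neurons also express H2-Mv genes, nonclassical class I histocompatibility genes (H2-M1, H2-M9, H2-M10.1 to H2-M10.6 and H2-M11) found in vomeronasal neurons. V2R genes lie in arrays of related copies, which are near-identical in some arrays.

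The chromosome 7 range held 4 arrays with chosen receptors, split where neighbouring V2R genes lie more than 1 Mb apart: Vmn2r29-52, Vmn2r53-56, Vmn2r57-63 and Vmn2r65-79, chosen by 8, 6, 6 and 5 cells. Vmn2r28 stands alone and was chosen by none. The chromosome 17 range held Vmn2r90-110 with 15 cells and Vmn2r111-117 with 3 cells. The arrays were defined after the values had been seen. To show the receptors' sequence at the annotated start, the 300 bases around the RefSeq start (250 before, 50 after) are given for the most often chosen receptor of each array that has a RefSeq entry, ties going to the higher summed count, and for the co-receptors Vmn2r1 and Vmn2r6. The sequences are from RefSeq, build GRCm38.p6, read 5′ to 3′ on the gene's strand. Capitals mark matches on either strand to TGACTCA, the AP-1 motif, or CCCNNGGG, the inner part of a motif of EBF factors.
Vmn2r42: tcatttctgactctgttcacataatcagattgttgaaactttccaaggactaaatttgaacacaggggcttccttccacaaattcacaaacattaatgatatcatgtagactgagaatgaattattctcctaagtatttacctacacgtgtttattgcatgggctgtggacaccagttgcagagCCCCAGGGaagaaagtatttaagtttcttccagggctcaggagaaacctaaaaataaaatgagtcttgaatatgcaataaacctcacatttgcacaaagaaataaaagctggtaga
Vmn2r53: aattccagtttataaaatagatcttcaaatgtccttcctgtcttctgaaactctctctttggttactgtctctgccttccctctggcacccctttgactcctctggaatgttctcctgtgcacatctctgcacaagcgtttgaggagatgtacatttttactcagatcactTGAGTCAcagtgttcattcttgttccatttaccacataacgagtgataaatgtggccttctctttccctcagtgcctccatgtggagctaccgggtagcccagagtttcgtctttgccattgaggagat
Vmn2r62: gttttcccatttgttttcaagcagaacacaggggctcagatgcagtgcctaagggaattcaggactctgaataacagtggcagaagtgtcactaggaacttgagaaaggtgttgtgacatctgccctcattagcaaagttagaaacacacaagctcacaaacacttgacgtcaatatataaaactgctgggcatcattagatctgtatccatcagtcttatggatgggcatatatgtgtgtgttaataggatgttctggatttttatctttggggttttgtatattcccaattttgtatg
Vmn2r67: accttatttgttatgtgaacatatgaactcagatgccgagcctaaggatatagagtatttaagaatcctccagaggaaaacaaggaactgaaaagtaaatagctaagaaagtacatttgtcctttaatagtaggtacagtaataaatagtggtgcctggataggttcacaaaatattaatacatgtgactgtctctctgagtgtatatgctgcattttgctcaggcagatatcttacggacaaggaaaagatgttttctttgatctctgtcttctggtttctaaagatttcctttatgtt
Vmn2r92: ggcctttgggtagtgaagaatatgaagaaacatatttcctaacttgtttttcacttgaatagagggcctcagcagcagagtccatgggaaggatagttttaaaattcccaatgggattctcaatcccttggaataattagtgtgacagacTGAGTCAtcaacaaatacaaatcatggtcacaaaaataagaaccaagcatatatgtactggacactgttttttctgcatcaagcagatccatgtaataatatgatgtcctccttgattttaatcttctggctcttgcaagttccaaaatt
Vmn2r114: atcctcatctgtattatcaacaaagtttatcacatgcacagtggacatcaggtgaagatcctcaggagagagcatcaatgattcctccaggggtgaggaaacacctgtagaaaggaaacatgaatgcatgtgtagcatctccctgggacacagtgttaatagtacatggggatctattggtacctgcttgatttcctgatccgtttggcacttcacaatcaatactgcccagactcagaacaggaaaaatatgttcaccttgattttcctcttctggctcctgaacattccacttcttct
Vmn2r1: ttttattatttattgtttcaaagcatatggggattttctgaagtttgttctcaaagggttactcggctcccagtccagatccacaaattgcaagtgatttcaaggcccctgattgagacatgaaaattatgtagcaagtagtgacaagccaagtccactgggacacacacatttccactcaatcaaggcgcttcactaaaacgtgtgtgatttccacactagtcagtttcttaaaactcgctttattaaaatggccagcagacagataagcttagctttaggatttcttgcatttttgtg
Vmn2r6: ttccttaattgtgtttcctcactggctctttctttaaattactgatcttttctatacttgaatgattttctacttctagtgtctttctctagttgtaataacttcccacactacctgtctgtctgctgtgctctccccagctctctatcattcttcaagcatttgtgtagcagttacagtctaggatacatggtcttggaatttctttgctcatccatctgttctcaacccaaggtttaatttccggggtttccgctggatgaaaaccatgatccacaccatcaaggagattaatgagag

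These windows lie at chr7:8200271-8200570 (Vmn2r42, minus strand), chr7:12606495-12606794 (Vmn2r53, minus), chr7:42793447-42793746 (Vmn2r62, minus), chr7:85155853-85156152 (Vmn2r67, minus), chr17:18151680-18151979 (Vmn2r92, plus), chr17:23312264-23312563 (Vmn2r114, minus), chr3:64081392-64081691 (Vmn2r1, plus) and chr3:64559769-64560068 (Vmn2r6, minus). Of the 30 receptors chosen on both sides, 29 had an entry. TGACTCA or its reverse complement was in 14 of 22 windows of Vmn2r29-52, 2 of 4 of Vmn2r53-56, 0 of 7 of Vmn2r57-63, 1 of 13 of Vmn2r65-79, 10 of 21 of Vmn2r90-110 and 0 of 7 of Vmn2r111-117, against 5.17% of 27025 windows of all genes. CCCNNGGG was in 17 of 22 windows of Vmn2r29-52, in 2 of 13 of Vmn2r65-79, in 1 of 21 of Vmn2r90-110 and in none of the 4, 7 and 7 windows of the other arrays, against 13.4% of all windows. The windows of arrays on the same chromosome thus differed in these letters, and most CCCNNGGG matches were in the 1 array Vmn2r29-52. These are 2 of 11 motifs searched, both picked after the search. CANNTG, the E-box, was in 19 of 21 windows of Vmn2r90-110 and in all windows of the other arrays, against 72.1% of all windows. A longer form of CCCNNGGG, with a further base fixed at each end, was also searched. It was in 0 windows of each array, against 0.914% of all windows. At that rate, its absence from so few windows decides nothing. Copies in an array share sequence, and a match is a description only. The RefSeq start lies 2244 bases inside the GENCODE gene for Vmn2r53, 6012 for Vmn2r6 and 224 for Vmn2r114, so these windows are not upstream by that annotation. For the other 5 it lies within 96 bases of the GENCODE end of the gene.

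The chromosome 7 cells chose 18 receptors and the chromosome 17 cells 12. On chromosome 7, Vmn2r62 was chosen by 3 cells (147, 163 and 200 counts), Vmn2r53 by 3 cells (120, 124 and 136), and Vmn2r42, Vmn2r58 and Vmn2r77 by 2 cells each. On chromosome 17, Vmn2r92 was chosen by 3 cells (108, 170 and 313 counts), and Vmn2r100, Vmn2r107, Vmn2r90 and Vmn2r93 by 2 cells each. The chosen receptor had 120 to 407 counts with a median of 184 in chromosome 7 cells, and 102 to 313 with a median of 174 in chromosome 17 cells. The lowest top V2R among the 60 cells was 97 counts, and the highest among the 6 left out was 47, in a cell whose top V2R was Vmn2r92. The lowest Gnao1 count of a member was 32, against 21 for the nearest cell outside. The highest Gnai2 count of a member was 28, and the lowest above the limit was 30.

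The chosen receptor held a median of 47.4% of a chromosome 7 cell's V2R counts and 65.8% of a chromosome 17 cell's. Much of the rest fell on copies: in Vmn2r29-52 the top receptor shared 50-base words with a median of 22 other V2Rs, and the second receptor of a cell had a median of 88.8% of the top count. In Vmn2r90-110 it shared them with a median of 1, and the second receptor had 15.2% of the top count. Without V2Rs that share at least 1% of their words, the top receptor held a median of 87.7% in chromosome 7 cells and 75.7% in chromosome 17 cells. Reads of near-identical copies in an array cannot be told apart here, so the receptor named for a cell is uncertain. In 2 cells another range came close: a Vmn2r58 cell with 188 counts also had 181 of Vmn2r105, with 40788 counts in all and 6 of Omp, and a Vmn2r96 cell with 102 counts also had 89 of Vmn2r83.

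Both sides were similarly deep. Total counts were 40788 to 235382 (median 150630) in chromosome 7 cells and 95561 to 225052 (median 157420) in chromosome 17 cells. Medians of 5934 and 6252 genes were detected, and the mitochondrial share had medians of 1.25% and 1.16%. Omp, the marker of mature neurons, had medians of 85 and 75.5 counts. Gap43, a marker of young neurons, had medians of 0 and 2 counts.

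Vmn2r1 was counted in every chromosome 17 cell. All 18 had at least 10 counts, from 11 to 89 with a median of 35 (100%, exact Clopper-Pearson interval 81.5% to 100%). In chromosome 7 cells it ran from 0 to 97 with a median of 26, and 17 of 25 had at least 10 counts (68%, 46.5% to 85.1%). The 8 cells below 10 lay in 3 arrays: 5 of the 8 Vmn2r29-52 cells, 2 of 6 Vmn2r53-56 cells and 1 of 6 Vmn2r57-63 cells. Scaled to the counts of all other genes, the summed Vmn2r1 level was 179 CPM (counts scaled to one common total) in chromosome 7 cells and 236 CPM in chromosome 17 cells, a ratio of 0.76 (0.68 to 0.84). The ranges of the 2 sides overlap. Each chamber's title gives one of 40 rows and one of 20 numbers, here called title rows and title numbers, and values were also taken within ranges of these. In title numbers 11 to 20 alone (7 and 6 cells) the ratio was 1.07, against 0.63 in title numbers 1 to 10 (18 and 12 cells), and it was 0.35 in title rows 1 to 20 and 0.92 in title rows 21 to 40. The sides were unbalanced over rows, with 9 chromosome 7 and 13 chromosome 17 cells in rows 1 to 20 and 16 and 5 in rows 21 to 40.

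The other co-receptors, Vmn2r2 to Vmn2r6, went the other way. Their summed counts per cell ran from 0 to 429 (median 50) in chromosome 7 cells and from 0 to 300 (median 17.5) in chromosome 17 cells. The levels were 716 and 295 CPM, a ratio of 2.42 (2.24 to 2.62). By gene the ratio was 3.43 for Vmn2r6 (2.91 to 4.05), 3.22 for Vmn2r3, 2.98 for Vmn2r4, 1.49 for Vmn2r5 and 1.44 for Vmn2r2. Vmn2r2 had at least 10 counts in similar shares of cells, 14 of 25 (56%) and 9 of 18 (50%). Of the chromosome 7 counts, 280 of 532 for Vmn2r2 and 104 of 196 for Vmn2r5 came from the 8 Vmn2r29-52 cells. Vmn2r6 had at least 10 counts in 13 of 25 chromosome 7 cells (52%, 31.3% to 72.2%) and in 2 of 18 chromosome 17 cells (11.1%, 1.38% to 34.7%). The ratio of the sum was 1.00 in title numbers 11 to 20 against 7.60 in title numbers 1 to 10. It was 4.45 in title rows 21 to 40 and 5.79 in cells under 10 counts of Gnai2. The 2 chromosome 17 cells with Vmn2r6 have title numbers 12 and 18, title rows 1 and 12, and 15 and 13 counts of Gnai2. Among these settings, only title numbers 11 to 20 thus held these 2 cells, which had 300 and 258 counts of the sum.

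**Figure D1:**
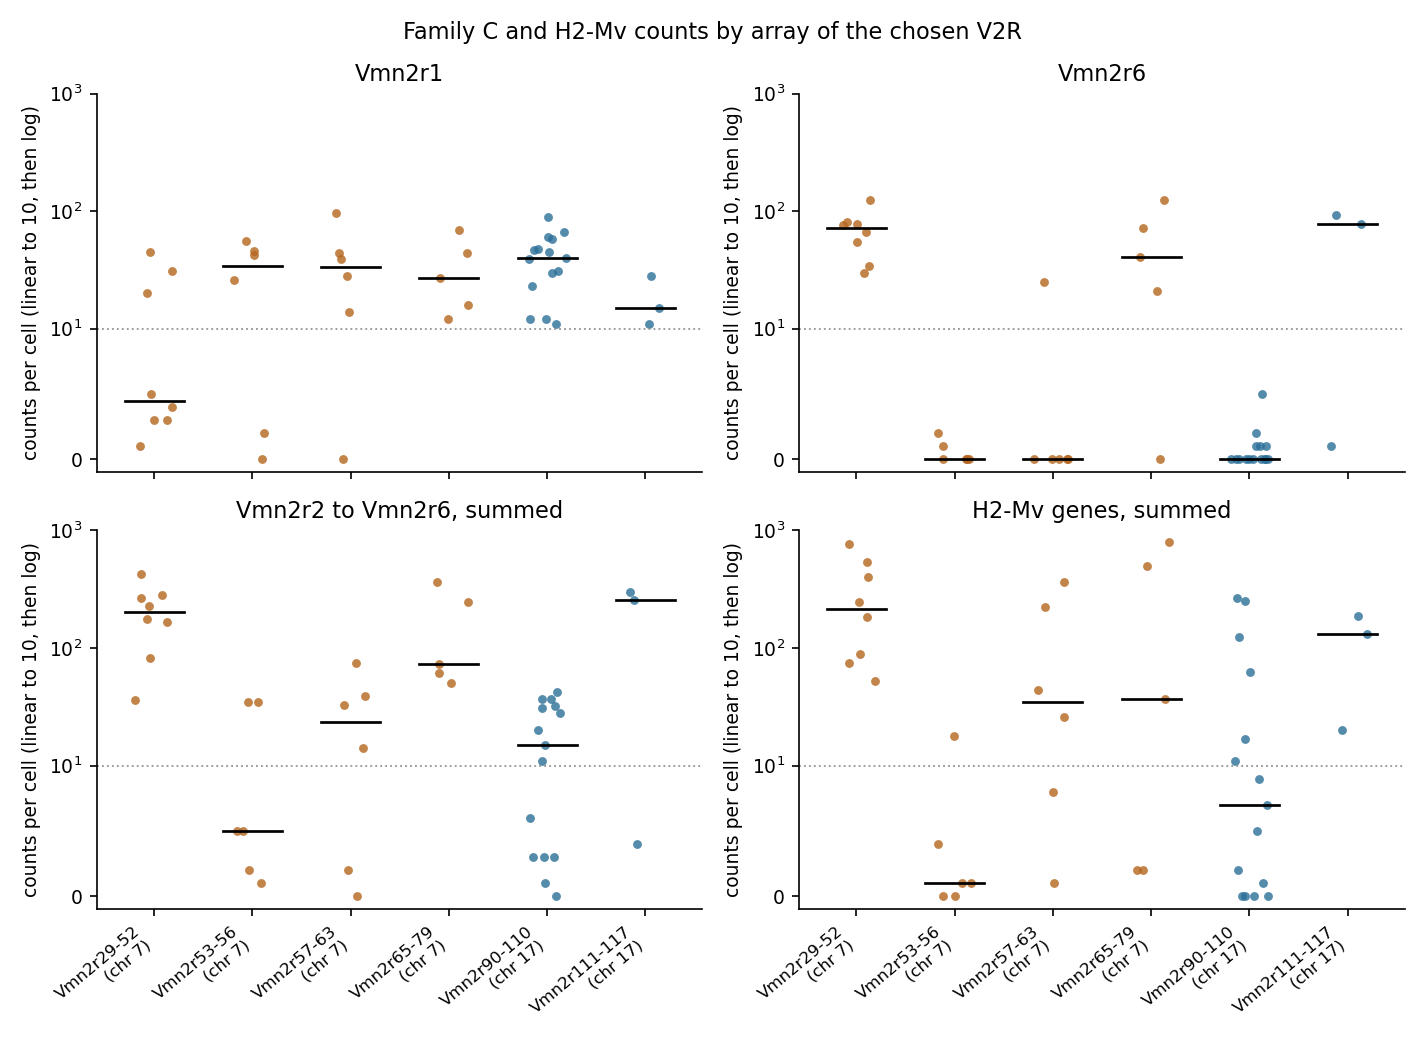
Counts per cell of Vmn2r1, Vmn2r6, the summed Vmn2r2 to Vmn2r6 and the summed H2-Mv genes (y axis, linear to 10 and then logarithmic) for the cells of each array (x axis; brown, chromosome 7; blue, chromosome 17). Each point is a cell, black bars are medians and the dotted line marks 10 counts; Vmn2r6 is above the line in 8 of 8 Vmn2r29-52 cells and in 0 of 15 Vmn2r90-110 cells.

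Vmn2r6 also varied between arrays of the same chromosome. The 8 Vmn2r29-52 cells had 30, 34, 55, 67, 76, 78, 80 and 124 counts of Vmn2r6. The 6 Vmn2r53-56 cells had 0, 0, 0, 0, 1 and 2. The 6 Vmn2r57-63 cells had 0 in 5 cells and 25 in the other. So on chromosome 7 Vmn2r6 was at 10 counts or more in every Vmn2r29-52 cell and in 1 cell of Vmn2r53-56 and Vmn2r57-63 together. The 5 Vmn2r65-79 cells had 0, 21, 41, 72 and 125 counts. On chromosome 17, the 15 Vmn2r90-110 cells had 0 to 5 counts, and the 3 Vmn2r111-117 cells had 1, 78 and 92. The 2 chromosome 17 cells with Vmn2r6 were thus both of the smaller array, and without its 3 cells the ratio of the summed Vmn2r2 to Vmn2r6 was 6.19. Without the 8 Vmn2r29-52 cells it was 1.37.

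Vmn2r1 without Vmn2r6 was the state of all 15 Vmn2r90-110 cells, 4 of 6 Vmn2r53-56 cells, 4 of 6 Vmn2r57-63 cells, 1 Vmn2r65-79 cell and 1 Vmn2r111-117 cell. Vmn2r6 without Vmn2r1 was seen in 5 cells of both sides, all of Vmn2r29-52. Both genes together were at 10 counts or more in 3 Vmn2r29-52 cells, 1 Vmn2r57-63 cell, 4 Vmn2r65-79 cells and 2 Vmn2r111-117 cells. Neither was in 2 Vmn2r53-56 cells and 1 Vmn2r57-63 cell, the latter the shallow Vmn2r58 cell named above. These counts describe the 43 cells, and arrays were not tested against each other.

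Thinning each cell to 50000 counts left out 1 chromosome 7 cell. At least 3 thinned counts of Vmn2r6 were then in 13 of 24 chromosome 7 cells (54.2%) and 2 of 18 chromosome 17 cells (11.1%), and of Vmn2r1 in 17 of 24 (70.8%) and 16 of 18 (88.9%). As a background, the same genes were counted in apical cells and empty chambers. The source of these counts was not tested. At 10 counts or more, Vmn2r1 was in 3 of 272 apical cells (1.10%) and 13 of 325 empty chambers (4.00%), and Vmn2r6 in 19 (6.99%) and 13 (4.00%). The median total was 150392 counts in apical cells and 20731 in empty chambers, of which the highest had 319287. The interval of the 11.1% of chromosome 17 cells with Vmn2r6 holds these shares, but it rests on 18 cells and cannot tell whether the 2 cells are background. Those 2 cells had 78 and 92 counts of Vmn2r6, against at most 96 in an apical cell and 91 in an empty chamber. Their summed Vmn2r2 to Vmn2r6 counts were 258 and 300, against at most 212 and 286.

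H2-Mv genes were higher in chromosome 7 cells in sum, and their members split. The summed H2-Mv counts per cell ran from 0 to 799 (median 44) in chromosome 7 cells and from 0 to 269 (median 10) in chromosome 17 cells. The levels were 1165 and 390 CPM, a ratio of 2.99 (2.80 to 3.20). At least 10 counts were in 16 of 25 cells (64%, 42.5% to 82.0%) and 9 of 18 cells (50%, 26.02% to 73.98%), against 66 of 272 apical cells (24.3%) and 99 of 325 empty chambers (30.5%). The ratio was 5.005 in title numbers 1 to 10 and 1.70 in title numbers 11 to 20.

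The 6 H2-M10 genes were each higher in chromosome 7 cells: 13.6-fold for H2-M10.1 (8.75 to 22.2), 8.87 for H2-M10.6, 5.30 for H2-M10.5, 3.63 for H2-M10.2, 3.59 for H2-M10.3 and 1.78 for H2-M10.4 (1.596 to 1.992). Few cells carried some of them: H2-M10.1 had at least 10 counts in 3 chromosome 7 cells, with 128 and 223 counts in 2 of the Vmn2r29-52 cells. H2-M10.3 had at least 10 counts in 13 of 25 chromosome 7 cells and 4 of 18 chromosome 17 cells, and H2-M10.5 in 8 and 5. H2-M10.3 was in all 8 Vmn2r29-52 cells (50 to 185 counts), in none of the 6 Vmn2r53-56 cells (0 to 3), in 1 of 15 Vmn2r90-110 cells and in all 3 Vmn2r111-117 cells (20, 100 and 119). H2-M10 transcripts share sequence, up to 11.5% of the 50-base words of H2-M10.5 being in H2-M10.3, so counts of neighbours are not independent.

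**Figure D2:**
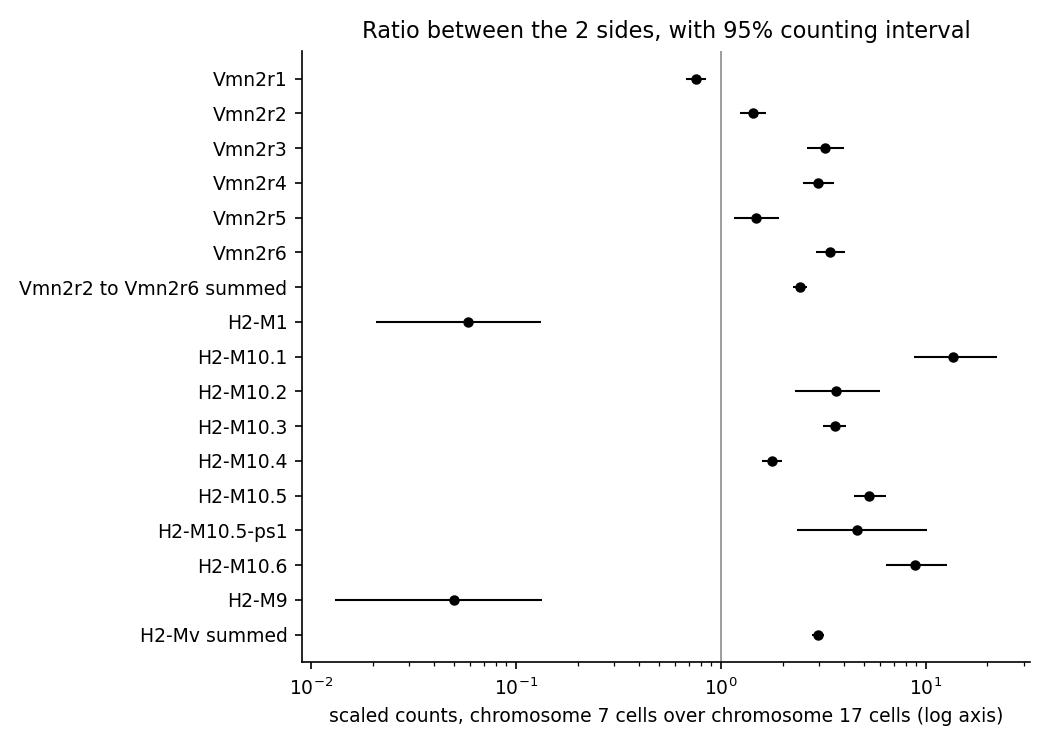
Ratio of scaled summed counts in chromosome 7 cells over chromosome 17 cells (x axis, logarithmic) for Vmn2r1 to Vmn2r6, each H2-M gene counted on both sides and 2 sums (y axis). Bars are 95% counting intervals, which leave out spread between mice and cells; Vmn2r1, H2-M1 and H2-M9 lie below 1 and the others above it.

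H2-M1 and H2-M9 went the other way, on few cells. H2-M1 had 6 counts over all chromosome 7 cells and 77 over the chromosome 17 cells, 17.2-fold higher in the latter (7.55 to 48.3), and 27 and 47 of the 77 came from 2 Vmn2r92 cells. H2-M9 had 4 and 60 counts, of which 58 were in 1 Vmn2r92 cell. H2-M10.4 was at 109, 126 and 205 counts in the 3 Vmn2r92 cells and at 0 to 7 in the other 12 Vmn2r90-110 cells. So the H2-Mv counts of that array were mainly those of 1 receptor: the 3 Vmn2r92 cells had 123, 251 and 269 counts of H2-Mv in sum, and without the Vmn2r92 and Vmn2r62 cells the H2-Mv ratio between sides was 6.53. H2-M11 was at 0 in all 43 cells, H2-M3 had 26 of its 27 counts in 1 Vmn2r111-117 cell, H2-M5 had 36 and 17 counts in 2 chromosome 7 cells, H2-M10.5-ps1 had 62 and 10 counts, and H2-M6-ps had none.

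Vmn2r6 and H2-Mv were compared cell by cell. Of the 25 chromosome 7 cells, 12 had both at 10 counts or more, 1 had Vmn2r6 alone, 4 had H2-Mv alone and 8 had neither. Of the 18 chromosome 17 cells, 2 had both, 7 had H2-Mv alone and 9 had neither. Among the 17 cells whose receptor lies elsewhere, 6 had both, 2 Vmn2r6 alone, 4 H2-Mv alone and 5 neither. The 3 Vmn2r82 cells of that set (Vmn2r82 lies on chromosome 10) had 161, 171 and 187 counts of H2-M1 and 184, 222 and 237 of H2-M9, and they held 0 counts of Vmn2r6.

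Cells that chose the same receptor were set side by side. The 2 Vmn2r42 cells had 67 and 76 counts of Vmn2r6 and 400 and 544 of H2-Mv in sum. The 3 Vmn2r53 cells had 0, 0 and 1 counts of Vmn2r6 and 0, 1 and 1 of H2-Mv, but 0, 26 and 42 of Vmn2r1. The 3 Vmn2r62 cells had 0, 0 and 25 counts of Vmn2r6 and 1, 26 and 225 of H2-Mv.

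All other genes were compared by a rule of size: a gene needed 50 counts over both sides, a 2-fold ratio over all cells, and a ratio of 1.5 or more the same way within title numbers 1 to 10, within title numbers 11 to 20 and once the highest cell of the higher side was dropped. Of 11078 genes, 819 were higher in chromosome 7 cells (7.39%) and 734 in chromosome 17 cells (6.63%), with a median log2 ratio of 0.00 over all genes. The rule did not ask for agreement over title rows. These counts were 543 and 1029 in title rows 1 to 20, with 9 and 13 cells. They were 1195 and 372 in title rows 21 to 40, with 16 and 5 cells. In both ranges the side with more cells had more called genes, and the part of the number of cells was not tested. Few cells stood behind each gene. The called genes had at least 10 counts in a median of 4 cells of the higher side and 1 of the lower, and for 614 of 1553 genes in 3 or fewer. Counts in a cell were mostly absent or large: of values above 0, 29.7% were 1 or 2, and 41.7% were 20 to 69. Requiring 10 counts in 25% of cells of the higher side left 225 genes (2.03%) and 314 genes (2.83%). Of the 2422 genes detected at 10 counts in most of the 43 cells, 6 were higher in chromosome 7 cells and 9 in chromosome 17 cells.

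**Figure D3:**
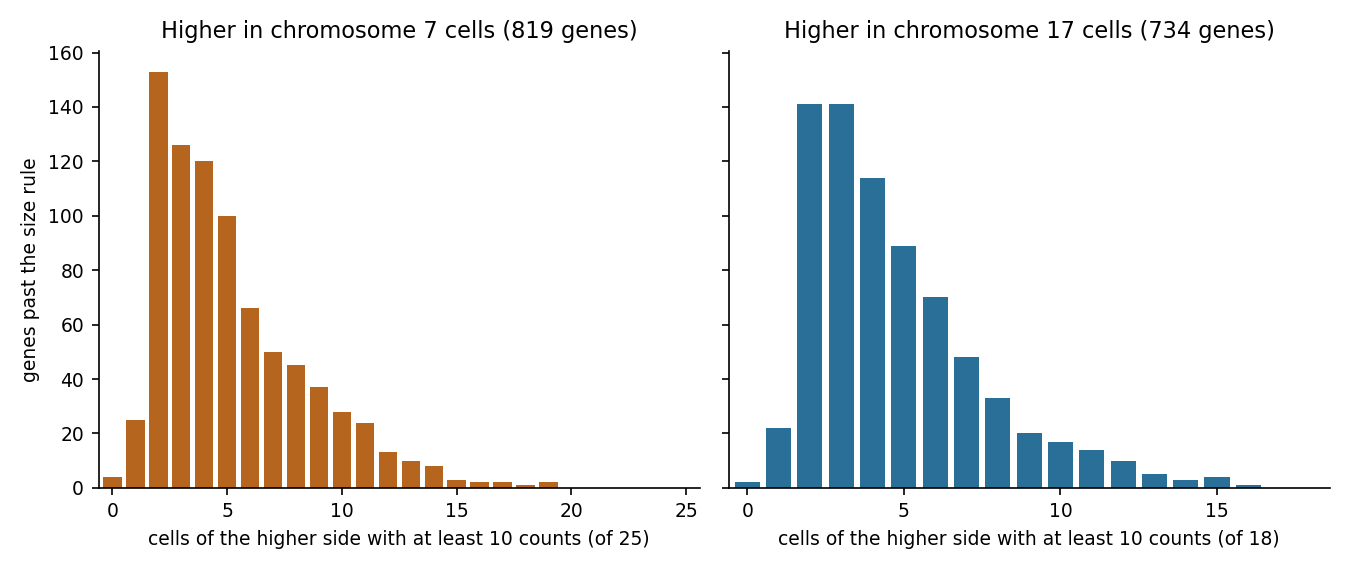
Number of genes past the size rule (y axis) by the number of cells of the higher side with at least 10 counts of the gene (x axis), for chromosome 7 cells (left, of 25) and chromosome 17 cells (right, of 18). Most called genes rest on few cells, with a median of 4 over both panels.

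Among the 12 genes highest by the smallest fold in chromosome 7 cells were Serpinb1a, a serine protease inhibitor, Dok4, an adaptor of receptor tyrosine kinases, and Zc3h4, a zinc finger protein. Serpinb1a had 269 counts in chromosome 7 cells and 2 in chromosome 17 cells, with at least 10 counts in 5 cells and in 0. Of these, 4 were among the 8 Vmn2r29-52 cells and 1 among the 5 Vmn2r65-79 cells, and it was at 0 in all cells of Vmn2r53-56, Vmn2r57-63 and Vmn2r90-110. Dok4 had 169 and 3 counts, with 10 or more in 9 chromosome 7 cells of all 4 arrays and in no chromosome 17 cell. Zc3h4 had 219 and 3 counts, in 7 cells and 0. The others were Gm15877, 6430573P05Rik, 1110008L16Rik, Gm45010, Abhd17b, Asb1, Stk36, Pcnt and 1110046J04Rik, with 10 or more counts in 3 to 5 cells and none of the other side.

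In chromosome 17 cells the 12 were Anxa4, Tsc22d4, Tdrd5, Stk11, Gm14817, E230001N04Rik, Mapk11, Aqr, Fn3k, Mkks, Prss36 and Maml1. Stk11, the kinase LKB1 that activates AMPK, was the most widespread, with 254 counts and at least 10 in 9 of 18 cells (50%, 26.02% to 73.98%), against 8 counts and 0 of 25 cells (up to 13.7%). It was at 10 or more in 57 of 272 apical cells. Stk11 was picked by its fold in these same cells, and the intervals take no account of that pick. Anxa4, a calcium-dependent membrane-binding protein, had 228 counts against 4, in 6 cells and 0. Tsc22d4 had 185 against 2, in 6 cells and 0, and Tdrd5, known from the germ line, 206 against 1, in 5 cells and 0.

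Asking in addition that the shares of cells with 10 counts lie 40 points or more apart, a limit set after seeing the data, left 22 genes higher in chromosome 17 cells (0.199%) and 2 higher in chromosome 7 cells (0.0181%). Elp5, a subunit of the elongator complex, stood furthest apart. It ran from 0 to 51 counts with 10 or more in 6 of 25 chromosome 7 cells (24%, 9.36% to 45.1%), and from 0 to 72 with 10 or more in 16 of 18 chromosome 17 cells (88.9%, 65.3% to 98.6%). These 16 were 13 of 15 Vmn2r90-110 cells and 3 of 3 Vmn2r111-117 cells. Its level was 3.64-fold higher, and it was in 38.6% of apical cells. Elp5 was picked by these same shares of the 2 sides, and their intervals take no account of that pick.

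Pcdh10, a delta-protocadherin of cell adhesion, was at 613 counts in chromosome 17 cells and 110 in chromosome 7 cells, 7.47-fold apart, with 10 or more in 11 of 18 and 3 of 25 cells. Of the 11, 10 were Vmn2r90-110 cells. Sh3gl2, endophilin A1 of synaptic vesicle recycling, was in 11 of 18 and 3 of 25 cells, and Zfand5, a zinc finger protein, in 11 and 2. Rars, the arginyl-tRNA synthetase, was in 8 and 1, and Bmpr1a, a receptor for bone morphogenetic proteins, in 12 and 5. In the other direction, Trim37, a ubiquitin ligase, was in 17 of 25 chromosome 7 cells and 5 of 18 chromosome 17 cells. Ranges of the 2 sides overlap for each of these genes. Tcp1, a chaperonin subunit, and Gm12251 are both among the 22, each with 359 and 553 counts, but their counts were equal in 4 of 43 cells only.

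**Figure D4:**
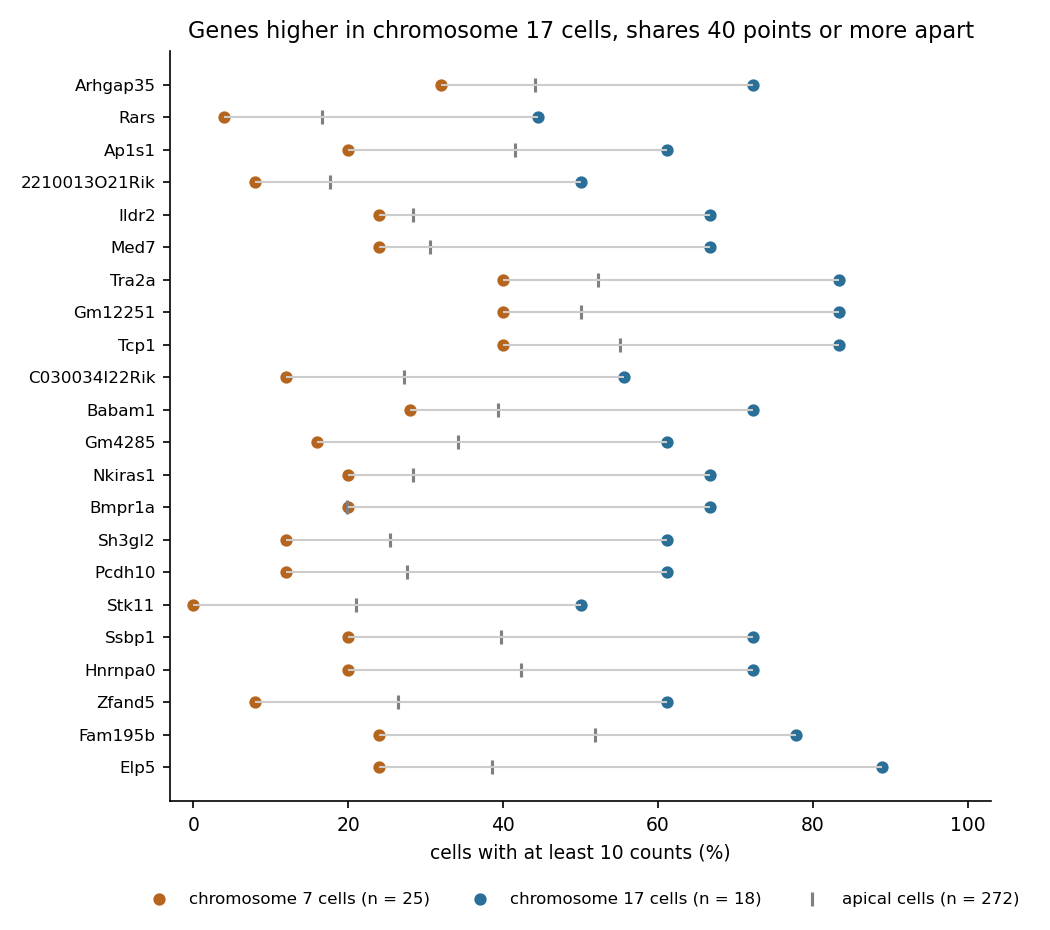
Share of cells with at least 10 counts (x axis, %) of the 22 genes higher in chromosome 17 cells whose shares lay 40 points or more apart (y axis), in chromosome 7 cells (brown, n = 25), chromosome 17 cells (blue, n = 18) and apical cells (grey ticks, n = 272). Elp5 stands furthest apart, at 24% and 88.9%, and for Stk11 the brown point lies at 0%.

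The gene lists held few called members, and no list was tested. Of 22 tested genes of receptor choice and chromatin, 6 were higher in chromosome 7 cells (against 7.39% of all genes) and 0 in chromosome 17 cells, with a median log2 ratio of 0.44. Ehmt2, the histone H3K9 methyltransferase G9a, had 326 and 38 counts, with 10 or more in 8 of 25 and 2 of 18 cells. Lbr, the lamin B receptor of the inner nuclear membrane, had 119 and 0, in 4 cells and 0. Cbx5, the heterochromatin protein HP1 alpha, had 152 and 12. Ctcf, an architectural DNA-binding protein, had 460 and 170, with 10 or more counts in 11 of 25 and 5 of 18 cells, and Tet2 and Tet1, which oxidise methylated cytosine, had 80 and 8 and 183 and 64. The most abundant members were level between sides: Hmgb1 1.10-fold and Atrx 1.10-fold higher in chromosome 7 cells.

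Of 10 apical-identity genes, 6 were tested and 3 were higher in chromosome 17 cells (against 6.63% of all genes): Meis2 (69 and 138 counts), Nrp2 (40 and 84) and Tspan12 (0 and 58). The other tested members did not pass the size rule: Gng13 (239 and 104) and Pon3 (68 and 28) had log2 ratios of 0.78 and 0.86, toward chromosome 7 cells, and Gng2 (216 and 206) of -0.35. Meis2 is a homeodomain factor and Nrp2 a semaphorin receptor of apical neurons. No chromosome 7 cell had 10 counts of any of the 3, and 6 chromosome 17 cells did, 2 of them with 2 of the genes. Tspan12 was carried by 2 Vmn2r92 cells, with 24 and 33 counts. In those 6 cells the summed V1R counts, receptors of apical neurons, had a median of 91.5, against 48.5 in the other 12 chromosome 17 cells and 33 in chromosome 7 cells. The 6 cells were split off by these genes after the values were seen. The apical list in sum ran from 4 to 89 counts (median 16) in chromosome 7 cells and from 3 to 121 (median 26.5) in chromosome 17 cells. Its part in the other differences was not tested.

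The lists that follow had 0 to 2 called members a direction, to be read against 7.39% and 6.63% of all genes. Of 12 basal-identity genes, all tested, 1 was called: Hhipl2, with 93 counts in chromosome 7 cells and 0 in chromosome 17 cells, from 2 cells. The keratins Krt18 (1.11-fold) and Krt8 (1.21-fold), with the highest counts of the list, were close between sides. Of 22 transcription factors tested, Hes6, a neurogenic repressor, was higher in chromosome 7 cells (176 and 28 counts) and Meis2 in chromosome 17 cells, while Ebf1 (1.00-fold) and Atf5 (1.09-fold) were level. Of 33 axon guidance and adhesion genes, Nectin1 (134 and 0 counts) and Efnb3 (58 and 0) were higher in chromosome 7 cells, and Nrp2 and Plxna3 in chromosome 17 cells. Efnb3 had 10 or more counts in only 1 Vmn2r29-52 cell and 1 Vmn2r65-79 cell. Ncam1 was 1.01-fold and Cntn4 1.10-fold.

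Of 26 signal transduction genes, Plcb4 (414 and 114 counts) and Slc8a1 (97 and 5) were higher in chromosome 7 cells, and Gnb2 (4 and 98) and Plcb2 (122 and 201) in chromosome 17 cells. Slc8a1 had 10 or more counts in only 2 cells, both of Vmn2r53-56. Plcb2 and Plcb4 are phospholipases C and Gnb2 is a G protein beta subunit. Among cells with under 10 counts of Gnai2 the log2 ratio of Plcb4 was -0.027. Among ion channel genes, Hcn2 (66 and 5) was higher in chromosome 7 cells and Kcnmb3 (123 and 268) in chromosome 17 cells. Hcn2 had 10 or more counts in only 2 Vmn2r57-63 cells and 1 Vmn2r65-79 cell. Of 25 endoplasmic reticulum chaperones, Hyou1 (452 and 149) was higher in chromosome 7 cells and Calr (51 and 99) in chromosome 17 cells. Calr had 10 or more counts in only 3 Vmn2r90-110 cells and 1 Vmn2r65-79 cell. Hspa5, the most abundant, was 1.14-fold higher in chromosome 7 cells. Of 13 antigen presentation genes, H2-T22 (210 and 22) and Nlrc5 (82 and 5) were higher in chromosome 7 cells, and B2m, the light chain of class I proteins, was 1.22-fold. Nlrc5 had 10 or more counts in only 1 Vmn2r53-56 cell and 1 Vmn2r57-63 cell. Aldh2 (99 and 18) and, of 12 clustered protocadherins tested, Pcdhb17 (175 and 5) were higher in chromosome 7 cells. In title rows 21 to 40 alone the log2 ratio of Aldh2 was -0.26 and that of Plxna3 0.43, both against the direction over all cells. None of 14 maturity and 10 activity genes was called, and none of 2 sustentacular and 4 immune genes tested. The sustentacular list in sum had medians of 2 and 1 counts a cell and the immune list of 2 and 2, with 3 of 8 and 5 of 12 members at 0 in all cells.

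Genes beside the receptors were compared because they share the chromosome region. Within 1 Mb of a V2R of the chromosome 7 range, 69 non-receptor genes were tested, of which 8 were higher in chromosome 7 cells and 1 in chromosome 17 cells, with a median log2 ratio of 0.02. Over all genes these shares were 7.39% and 6.63%. Within 5 Mb the counts were 13 and 12 of 215. Within 1 Mb of the chromosome 17 range, 45 were tested, 7 higher in chromosome 7 cells and 5 in chromosome 17 cells, with a median of 0.01, and within 5 Mb the counts were 11 and 12 of 142. The 8 included Gm3956, Gm20287 and Gm20345, annotated pseudogenes in the Vmn2r29-52 array of which 93.1%, 85.2% and 85.4% of the 50-base words are in V2R transcripts. Most of their counts, 135, 129 and 130, came from 1 Vmn2r36 cell, so these cannot be told apart from V2R reads.

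Gm15877, singled out after its values were seen, was different. It is a processed pseudogene at chr7:12517405-12518368 (GENCODE vM21, GRCm38), 44.5 kb from Vmn2r53, and holds no 50-base word of a V2R transcript. It had 27, 33, 45, 74 and 102 counts in 5 of the 6 Vmn2r53-56 cells (those that chose Vmn2r54, Vmn2r56 and, in 3 cells, Vmn2r53) and at most 1 in every other basal cell of the gate. In the other 328 single cells it was at 10 counts or more in 1, and in 4 of 325 empty chambers. It lies within the span of 2900092C05Rik, 6.53 kb from Vmn2r53, which had 98 counts in chromosome 7 cells, 40 and 49 of them in 2 Vmn2r53 cells, and 0 in chromosome 17 cells. The other called genes within 1 Mb of the chromosome 7 range were Peg3, Tmem86b and Zfp446, higher in chromosome 7 cells, and Brsk1, higher in chromosome 17 cells. Their cells were of several arrays.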

How the data were processed

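Gene counts were measured in 800 chambers: 394 single-cell, 18 putative single-cell, 63 with multiple cells and 325 empty. Per the submitters' processing notes the tools the authors used include STAR 2.5.4b, SAMtools 1.5, featureCounts 1.6.1 (Subread), bcl2fastq and UMI-tools 0.5.3, and the build is GRCm38. The deposited table holds whole-number counts for 28963 genes, and 1 column that belongs to no chamber was not used. How reads of near-identical copies were counted is not given in the sources used here.

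Counts were summed over the cells of each side and scaled to the side's total without receptor and H2-M genes (Python 3.11.15, numpy 2.4.6, pandas 2.3.3, scipy 1.17.1). Sums have exact Poisson intervals, ratios exact conditional binomial intervals and shares exact Clopper-Pearson intervals, at 95%. The size rule was run on simulated Poisson counts with a common rate per gene apart from set folds. These lack the spread between cells seen here, so they give no rate of false calls for these data. In the size rule a side at 0 was set to 3 counts. Intervals of sums and ratios treat counts as molecules, and those of shares treat cells as independent draws. Positions and transcripts are from GENCODE vM21, promoters from RefSeq GRCm38.p6 (first entry of a gene). The members and lists were chosen with earlier results of these data known. Genes named are Vmn2r1 to Vmn2r6, all H2-M genes, the 5 receptors chosen most often a side and the 12 genes a side with the largest smallest fold. Also named are list members the size rule took (at most 6 a list), up to 2 most abundant members a list, and the 24 genes apart by 40 points. Results of some genes this rule takes are not reported here. No doublets were called; chambers labelled as holding multiple cells were left out.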

Additional observations from a re-analysis of the deposited data

Results flagged for a closer look

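In each array of 4 to 8 cells, the highest and the lowest cell were set against the others by Dixon's criterion for Vmn2r1, Vmn2r6, the summed Vmn2r2 to Vmn2r6 and the summed H2-Mv genes, 16 groups in all, and 2 cells stood apart. Chance flags about 1 in 20 groups of normal values, and the rate for counts with many zeros, as here, was not tested. A Vmn2r62 cell had 25 counts of Vmn2r6, while the other 5 Vmn2r57-63 cells had 0. A Vmn2r55 cell had 18 counts of H2-Mv genes in sum, while the other 5 Vmn2r53-56 cells had 0 to 4.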

How the results depend on the processing

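No paired analysis was possible because the labels give no replicate number that links a chamber to a mouse or pool, and no replicate was left out in turn because cells are not replicates. Genes higher in chromosome 7 and in chromosome 17 cells numbered 819 and 734, and 1808 and 1594 by 2-fold in all cells only, 469 and 436 thinned to 50000 counts, 225 and 314 with 10 counts in 25% of cells, 2 and 22 with shares 40 points apart, 1386 and 1152 in title numbers 1 to 10 alone (where the agreement of both title ranges cannot be asked). In the same order they numbered 570 and 482 at 3-fold. In title rows 1 to 20 (9 and 13 cells) they were 543 and 1029. In title rows 21 to 40 (16 and 5 cells) they were 1195 and 372. The balance between directions turned with the rows, but the number of cells a side turned with them. At Gnao1 of 60 (20 and 10 cells) the counts were 1008 and 635. The part of the number of cells was not tested. The ratio of the summed Vmn2r2 to Vmn2r6 was never below 1: 2.81 thinned, 2.75 with receptor counts corrected for a chamber's row and number, 1.74 at Gnao1 of 60, 5.79 at Gnai2 under 10, 2.04 with putative single cells, 7.60 and 1.00 in title numbers 1 to 10 and 11 to 20, 2.63 and 4.45 in title rows 1 to 20 and 21 to 40, 6.19 without the Vmn2r111-117 cells and 1.37 without the Vmn2r29-52 cells, the last 2 alternatives and the 40 points chosen after seeing the data. The H2-Mv ratio in those settings was 2.78 thinned, 2.70 at Gnai2 under 10, 2.32 with putative cells, 5.005 and 1.70 by title number, 4.41 and 2.31 by title row, 3.57 and 2.04 without those arrays, and 6.53 without the Vmn2r62 and Vmn2r92 cells. The Vmn2r1 ratio of 0.76 turned to 1.07 in title numbers 11 to 20 and was 0.63 in 1 to 10, 0.35 and 0.92 by title row, 0.88 at Gnao1 of 60, 0.86 with putative cells and 0.93 without the Vmn2r29-52 cells. The median log2 ratio near the chromosome 17 receptors was -0.25 thinned, -0.25 at Gnao1 of 60, -0.24 at Gnai2 under 10 and 0.46 in title rows 21 to 40. Plcb4 turned to -0.027 (log2) at Gnai2 under 10, and Plxna3 and Aldh2 to 0.43 and -0.26 in title rows 21 to 40. Over all alternatives, values of named genes kept direction and call in 1003 cases, lost the call in 162 and turned in these 3. The cause of these moves was not tested. Title numbers 1 to 10, title rows 21 to 40 and Gnai2 under 10 each leave out the 2 chromosome 17 cells with Vmn2r6. The genes tallied were picked because the size rule called them in these same cells, and some alternatives left the called genes unchanged. A gene under the count minimum in an alternative was left out of the tally. The tally is therefore not a measure of robustness.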

Other observations

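Transcripts of V1Rs, the receptors of apical neurons, were counted at low levels in the basal cells. Their sum over 266 genes ran from 7 to 119 counts (median 33) in chromosome 7 cells and from 17 to 181 (median 69) in chromosome 17 cells, and the highest single V1R of a cell had medians of 10 and 30 counts. V2R pseudogenes went the other way, with medians of 29 and 13.5 counts a cell. The sequence they share with V2Rs, which were selected on, was not measured. How many of these counts are V2R reads is therefore unknown.

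Among the cells whose receptor lies in neither range, H2-M11 was at 58, 82 and 106 counts in the 3 Vmn2r82 cells, and it was at 0 in all 43 cells of the 2 sides. Serpinb1a, beyond the Vmn2r29-52 and Vmn2r65-79 cells, was at 52 counts in 1 of these 17 cells and at 10 counts or more in 13 of 328 single cells outside the basal gate.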
